A study of Homo sapiens with 45 samples.

Results

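Histone genes were followed across 45 Affymetrix U133 plus 2.0 arrays of A375 cells, an established human melanoma line. The members were all probe sets whose current gene symbol begins with H1-, H2AC, H2BC, H3C or H4C, and a probe set naming several genes was kept when all of them lay in these families. The rule took 78 of the 54675 probe sets on the array, and these named 69 genes. Of the 78, 14 belonged to linker histone H1, 16 to H2A, 20 to H2B, 10 to H3 and 16 to H4, and 2 named genes of both H2A and H3. One gene was named by 58 probe sets and several genes by 20, with up to 14 genes in one probe set, because histone coding sequences are nearly the same from copy to copy. The 14 H4 genes named together were H4C1, H4C2, H4C3, H4C4, H4C5, H4C6, H4C8, H4C9, H4C11, H4C12, H4C13, H4C14, H4C15 and H4C16, and a signal of such a probe set could not be assigned to any one of them. The rule used symbols alone. It took 66 probe sets of replication-dependent genes and 12 of another class, among them H1-10, a replication-independent linker histone, H1-8, the oocyte linker histone, testis forms of H1 and H2B, an antisense RNA and pseudogenes.

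Each of 39 arrays held RNA from 1 culture of A375 cells taken 48 h after transfection with an siRNA against 1 gene. The other arrays were 3 labelled as given a control siRNA and 3 labelled as untreated. The 39 targeting siRNAs lay in the experimental batches that the study calls KD1 (9 arrays), KD2 (23 arrays) and KD3 (7 arrays), and no batch is given for the control and untreated arrays. Each siRNA had 1 array, so that a difference in a single array has no replicate check and no test. The transfections of the study used pools of siRNAs against each target, and its written accounts do not give the same siRNA dose, so none is printed. Values were the log2 of RMA intensities, and differences of the siRNA arrays were taken from the median of their own batch.

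Before the histone values, 3 checks of the arrays were made. A probe set naming the target alone was found for 37 of the 39 targets, and in all 37 the target was lower than the batch median in its own array by 1.5-fold or more, from a log2 difference of -0.65 for CTNNB1 to -2.27 for NMI. HSF2 and CDKN2C were the targets not checked in this way. Of 9 melanocyte lineage genes, 3 lay above the noise limit defined below, namely SOX10 (log2 10.90), S100B (9.87) and MITF (9.02). The pigment genes PMEL (5.41), TYR (5.56), MLANA (4.10) and TYRP1 (3.23) were below it, as were all 5 leukocyte and all 3 endothelial markers, while 1 of 4 keratinocyte markers, KRT10, was above it at 11.22. Untreated array 3 and control array 3 were near copies. The ratio of their intensities lay between 0.90 and 1.10 in 100% of probe sets, with quartiles of 0.950, 0.9996 and 1.05 that are evenly spaced over this span, and 95.4% stayed within 10% with the ratio turned, against 62.0% for the next closest pair of arrays. The SD of their log2 ratio was 0.0834 above noise and 0.0838 below it, against 0.118 and 0.208 for the second arrays and 0.356 and 0.348 for the first. Comparisons of these groups are therefore given with and without the third arrays, and the cause was not tested.

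Replication-dependent histone genes supply the core histones H2A, H2B, H3 and H4 and the linker histone H1 that package newly made DNA. They lie in clusters on chromosomes 6 and 1, are switched on as cells enter S phase through NPAT and CASP8AP2, and give messages that end in a stem-loop bound by SLBP in place of a poly(A) tail. Part of their transcripts can be polyadenylated instead, in cells that leave the cycle or differentiate, and the standard labelling for these arrays primes with oligo-dT, which favours polyadenylated RNA. The forms behind the signals here were not measured.

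The start regions of the histone genes differ by family, and 7 are shown because their genes head the results below or stand for their family. RefSeq promoters of GRCh38.p14 were matched for 59 of the 69 genes, and the 250 bases before each start were searched on both strands for 4 motifs. These were the letters CCAAT of the box bound by NF-Y, the letters TATAAA of a TATA box, the octamer ATTTGCAT known from H2B promoters and the element AAACACA known from H1 promoters. The last 120 bases before the start are printed 5′ to 3′ in the direction of the gene, and capitals mark a match on either strand, so that a capital ATTGG is the NF-Y box read on the other strand. The regions are chr6:26124052-26124171 (plus strand) for H2AC6, chr1:149842751-149842870 (minus strand) for H2AC18, chr1:149886683-149886802 (minus strand) for H2BC21, chr6:27146859-27146978 (minus strand) for H2BC12, chr6:26056471-26056590 (minus strand) for H1-2, chr1:149832537-149832656 (plus strand) for H4C14 and chr3:129316287-129316406 (minus strand) for H1-10.
H2AC6: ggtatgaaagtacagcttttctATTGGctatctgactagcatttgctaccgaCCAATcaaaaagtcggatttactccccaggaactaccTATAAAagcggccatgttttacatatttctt
H2AC18: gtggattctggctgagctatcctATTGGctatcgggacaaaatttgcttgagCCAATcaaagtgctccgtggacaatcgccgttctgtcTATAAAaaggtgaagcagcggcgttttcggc
H2BC21: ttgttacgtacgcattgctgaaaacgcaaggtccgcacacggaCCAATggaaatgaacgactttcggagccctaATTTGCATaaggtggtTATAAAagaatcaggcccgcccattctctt
H2BC12: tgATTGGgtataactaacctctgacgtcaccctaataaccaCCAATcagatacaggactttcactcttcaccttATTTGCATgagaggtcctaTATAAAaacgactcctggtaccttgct
H1-2: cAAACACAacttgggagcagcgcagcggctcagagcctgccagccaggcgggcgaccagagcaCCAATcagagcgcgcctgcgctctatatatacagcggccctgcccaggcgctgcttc
H4C14: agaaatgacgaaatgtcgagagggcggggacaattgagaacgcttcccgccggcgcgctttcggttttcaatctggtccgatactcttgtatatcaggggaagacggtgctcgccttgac
H1-10: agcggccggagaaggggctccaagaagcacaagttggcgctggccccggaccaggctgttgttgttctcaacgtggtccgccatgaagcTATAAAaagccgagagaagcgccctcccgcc

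The CCAAT box was present in 44 of 54 replication-dependent genes with a promoter (81.5%), against 32.0% of all 35116 promoters in the table. TATAAA was present in 35 of the 54 (64.8%), against 10.7% of all. The octamer was in 12 of 15 H2B promoters (80%), 8 of 13 H2A promoters and 1 of 8 H3 promoters, and in 1.63% of all promoters. The AAACACA element was in 5 of 5 H1 promoters, against 4.82% of all. CCAAT was in all 13 H2A, 15 H2B and 8 H3 promoters but in 3 of 13 H4 promoters. The printed H4C14 stretch held none of these letters and that of H1-10 held TATAAA alone, which says nothing of the factors bound there. Many of these windows are shared: 12 divergent pairs of starts lay within 500 bases of each other, such as H2BC4 with H2AC6, H2BC21 with H2AC20 and H2AC25 with H2BC26, and a motif between such starts counts for both genes.

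Most histone probe sets gave little signal in these cells. The noise limit follows the study's methods and is 1.5 times what the bacterial spike-in BioB gave at its 3′ probes by the median, which is a log2 value of 8.59 or 384.8 in intensity. Over the 39 siRNA arrays 5 of the 78 members (6.41%) had a median at or above it, against 13.97% of all probe sets. The median log2 value over the members was 4.46, against 5.09 over all probe sets, and 48 members had a median below 5.

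The 5 above noise were the 14-gene H4 probe set 205967_at (median 11.25), H2BC12 209806_at (9.93), H1-10 204805_s_at (9.22), 214290_s_at of the H2A copies H2AC18 and H2AC19 (9.22) and H2AC25 221582_at (8.73). Just below the limit lay H2BC12L 208579_x_at (8.52), 218280_x_at of H2AC18 and H2AC19 (8.18), H2BC5 209911_x_at (7.74) and H1-2 209398_at (7.63). A level depends on the probes as well as on the RNA, so levels of different probe sets were set against the noise limit and not against each other.

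**Figure D1:**
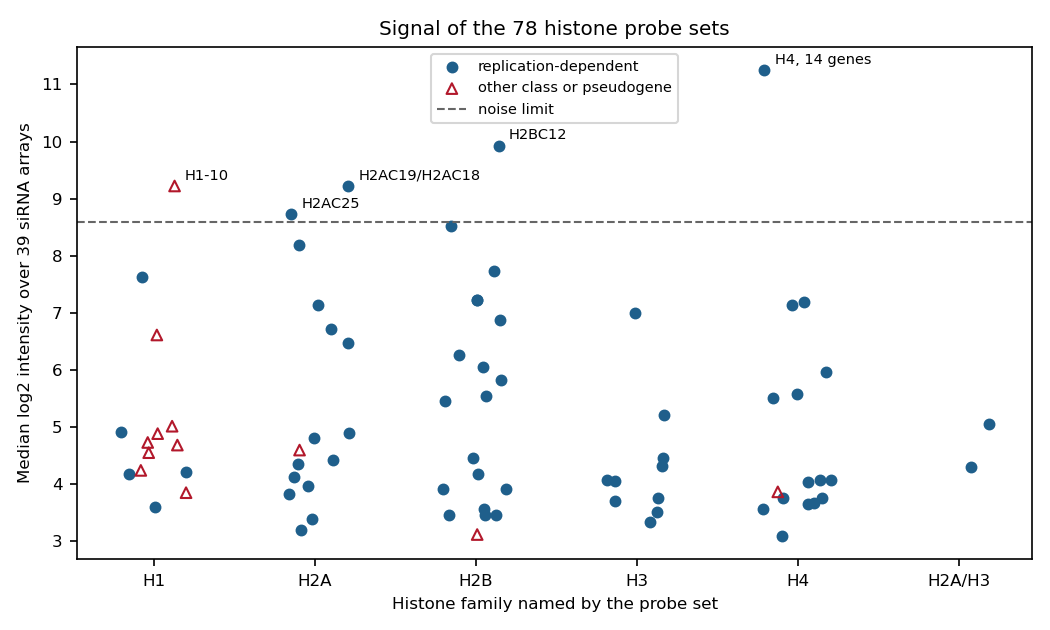
Median log2 intensity over the 39 siRNA arrays of each of the 78 histone probe sets (points), grouped by family, with the noise limit of 8.59 as a line. The 5 probe sets at or above the line are the 14-gene H4 probe set 205967_at, H2BC12, H1-10, 214290_s_at of H2AC18 and H2AC19, and H2AC25.

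Members above noise varied more between siRNA arrays than other probe sets of that level range. The median SD of their batch-centred log2 values was 0.238, against 0.123 over all 7636 probe sets above noise. Over all 78 members it was 0.176, against 0.160 over all probe sets. No test was made of this, since the probe sets are not replicates.

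Most probe sets that carry the same name did not follow each other closely, though most of these probe sets lay below the noise limit. In 13 names with more than 1 probe set there were 28 pairs, and Spearman's rho of their batch-centred values over the 39 arrays had a median of 0.07, from -0.22 to 0.91. The highest value was that of 214290_s_at and 218280_x_at, both of H2AC18 and H2AC19. In 0 of the 28 pairs were both probe sets above the noise limit, and 21 held a probe set with a median below 5. The H2BC5 pair had a rho of 0.73, and the H4 probe sets 205967_at and 207046_at, which name the same 14 genes, had a rho of -0.08.

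Between genes, a group of H2A, H2B and H1 probe sets moved together: rho was 0.89 for H2BC5 209911_x_at with H2AC6 215071_s_at, 0.85 for 218280_x_at with H2AC6, 0.85 for H2BC12 with H2BC12L and 0.82 for H1-2 with H2AC6. The 14-gene H4 probe set 205967_at stood apart from them, with a rho of -0.35 with 218280_x_at. These values describe 39 arrays that share a normalization, and similar sequences can share hybridisation. They are given without a test.

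The first question was whether histone signal moved with the S phase programme across the siRNAs. A G1/S score was the mean over 44 S phase genes, no member or siRNA target among them, of batch-centred log2 values. It was lowest after siRNA against MAP2K1 (-0.495), MITF (-0.395), PCNA (-0.303) and CHEK1 (-0.289) and highest after siRNA against RB1 (0.265). Genes were fitted to it with batch as a term, and coefficients are log2 change per SD of the score over the 39 arrays. In whole cultures fewer cells in S phase and less RNA per cell cannot be told apart.

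Histone signal changed with the G1/S score in 10 of 78 members, in 9 of them downward. Lower with a higher score were 11.5% of the members, against 1.41% of all probe sets, and higher was 1 member (1.28%), against 3.33% of all. By family the lower calls were 4 of 16 H2A, 3 of 20 H2B, 1 of 10 H3, 1 of 14 H1 and 0 of 16 H4 probe sets, and the single higher call was an H4 probe set. Over all members 52 of 78 coefficients were negative (66.7%) and their median was -0.0102, against 56.0% and a median of -0.0054 over all probe sets. Negative were 13 of 16 H2A, 16 of 20 H2B, 6 of 10 H3, 8 of 14 H1 and 8 of 16 H4 coefficients.

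Of the H2A and H2B genes, H2AC6 215071_s_at had the coefficient farthest below 0 among the calls, -0.21 ± 0.064 (SE; limma adjusted p = 0.0489). Its log2 value ran over 5.94, 6.77 and 7.36 (lowest, median and highest) in KD1, over 6.28, 6.91 and 7.94 in KD2 and over 8.84, 9.29 and 9.50 in KD3. H2BC21 202708_s_at, a replication-dependent H2B gene with polyadenylated transcripts, came next at -0.19 ± 0.052 (adjusted p = 0.0194), with values of 4.59, 5.38 and 5.68 in KD1, 4.52, 5.38 and 6.37 in KD2 and 5.37, 5.80 and 5.91 in KD3. Both were below the noise limit by their medians. The KD1 and KD2 arrays overlapped in both, whereas in H2AC6 every KD3 array lay above all KD1 and KD2 arrays.

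Above noise, 214290_s_at of H2AC18 and H2AC19 fell by 0.12 ± 0.034 per SD (adjusted p = 0.0291), and 218280_x_at of the same genes, below noise, by 0.14 ± 0.036 (adjusted p = 0.0200). The H2BC5 probe sets 209911_x_at and 222067_x_at had -0.16 ± 0.046 (adjusted p = 0.0302) and -0.11 ± 0.028 (adjusted p = 0.0137). H3C6 214616_at, an H3 gene, had -0.13 ± 0.032 (adjusted p = 0.00943).

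The other lower calls were 207156_at, naming 6 H2A genes, and H1-6 1553568_a_at, a testis linker histone, at -0.13 and -0.07. All of these except 214290_s_at were below the noise limit. H2BC12, above noise, had -0.12 ± 0.040 and was not called (adjusted p = 0.0779), nor was H2AC25 at -0.05 ± 0.028 (adjusted p = 0.343).

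The 14-gene H4 probe set 205967_at rose with the score, by 0.12 ± 0.033 per SD (adjusted p = 0.0243). Its values were 10.72, 11.20 and 11.40 in KD1, 10.59, 11.20 and 11.56 in KD2 and 11.66, 11.97 and 12.04 in KD3 (lowest, median and highest). With no batch term and a score of values not centred on the batch, the coefficient was -0.17 (limma adjusted p = 0.0155). Term and score were changed together, so the part of each in this reversal was not tested. H1-10 had 0.05 ± 0.027 (adjusted p = 0.310) and H1-8 -0.01 (adjusted p = 0.82), neither called.

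**Figure D2:**
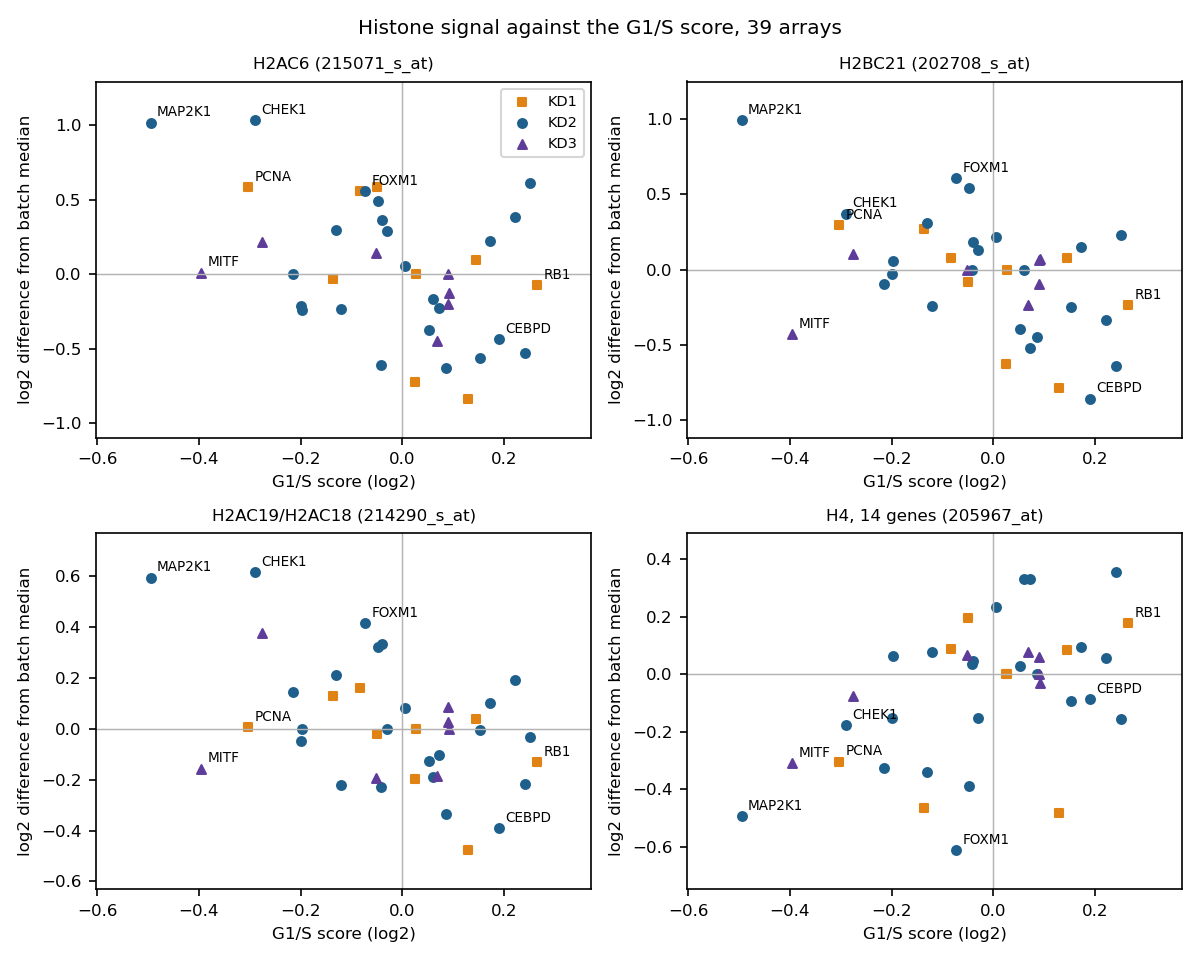
Batch-centred log2 values of H2AC6, H2BC21, 214290_s_at of H2AC18 and H2AC19 and the 14-gene H4 probe set 205967_at (y axes) against the G1/S score (x axis), with 1 point for each of the 39 siRNA arrays coloured by batch. The MAP2K1 array lies at the left end of each panel at a score of -0.495.

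All 10 coefficients kept their sign within KD1 and within KD2, and 8 of 10 did within KD3, where H2BC21 had 0.07 and H1-6 0.003. These members were picked by the fit over the same arrays, so the kept signs are not separate support. Within KD2 alone, with 23 arrays, H2BC21 was the 1 member called. A single array carried much of the result. Without the MAP2K1 siRNA array, which had the lowest score, 1 member of the 10 was called, H3C6 214616_at. This probe set was called with any 1 of the 39 arrays left out. Its median was 4.33, below the noise limit. Its Spearman's rho with the other H3C6 probe set, 236278_at, which was not called, was 0.08. Without MAP2K1 and MITF, the 2 arrays farthest from the median score, the calls were H2BC21 and 218280_x_at, a choice made after the data were seen.

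The other calls depended on more arrays. H2BC21 and H2BC5 222067_x_at were lost only without MAP2K1, and 218280_x_at also without CHEK1. The H4 probe set 205967_at was lost without AKT1, MAP2K1 or MITF, and 214290_s_at without AKT1, CHEK1, MAP2K1 or MCM2. H2BC5 209911_x_at was lost without CHEK1, MAP2K1, PCNA or RB1. H2AC6 was called in 13 of the 39 fits with 1 array left out, H1-6 in 12 and 207156_at in 31.

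A G2/M score over 42 mitosis genes ran close to the G1/S score, with a Spearman's rho of 0.92 over the 39 arrays, so the fits to these scores are not separate evidence. Against it 2 members were lower (2.56%; 0.668% of all probe sets) and 1 was higher (1.28%; 2.25% of all). The lower ones were the H2BC5 probe sets 209911_x_at, at -0.16 ± 0.046 (limma adjusted p = 0.0344), and 222067_x_at, at -0.10 ± 0.029 (adjusted p = 0.0376). The H4 probe set 205967_at was higher at 0.12 ± 0.033 (adjusted p = 0.0257), H1-10 was at 0.06 ± 0.027 (adjusted p = 0.247) and H1-8 at 0.0004. No member was called without the MAP2K1 array.

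A p53 score over 23 target genes was highest after siRNA against CHEK1 (0.682) and CCNA2 (0.355). No member was called against it in either direction, where 0.064% of all probe sets were called higher and 0% lower. At an unadjusted p under 0.05 the count was 15 of 78 members and 1768 of all 54675 probe sets, and 51 of 78 coefficients were positive with a median of 0.02, against -0.0026 over all probe sets. Positive coefficients were those of 18 of 20 H2B, 11 of 16 H2A, 8 of 10 H3, 6 of 14 H1 and 6 of 16 H4 probe sets. H2AC6 had 0.24 ± 0.061 per SD (limma adjusted p = 0.27), H1-10 -0.02 and H1-8 -0.003. Without the CHEK1 array 10 of 78 members and 6331 of all 54675 probe sets had an unadjusted p under 0.05.

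**Figure D3:**
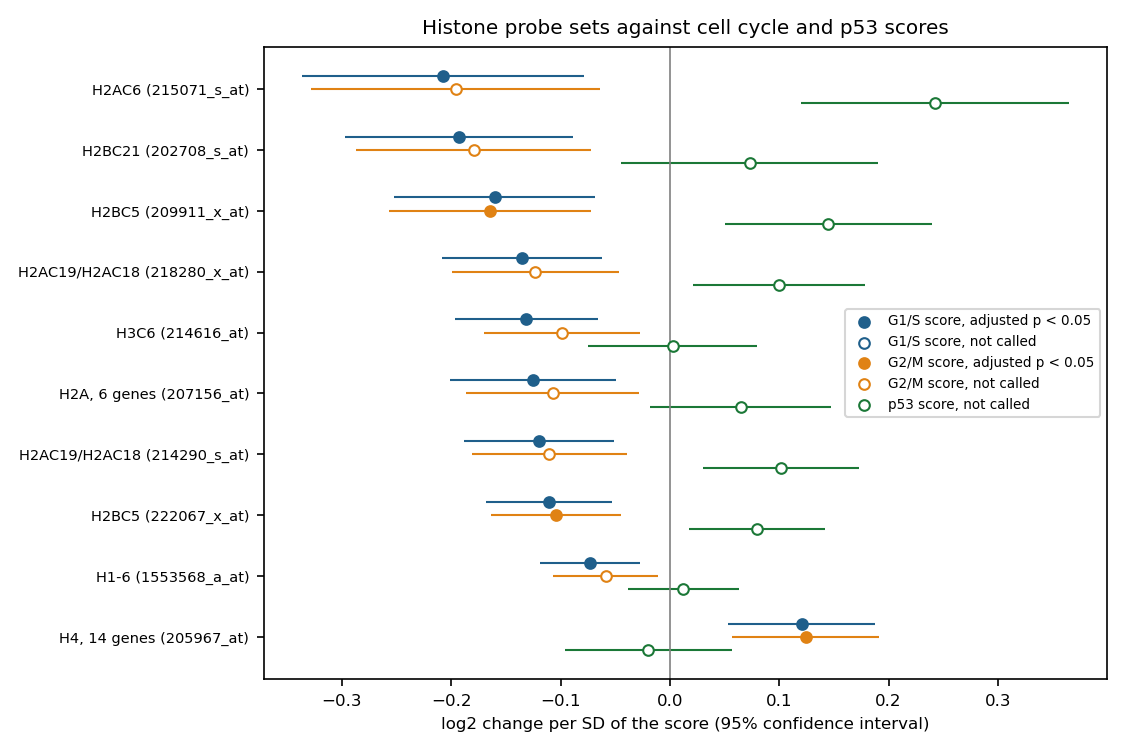
Coefficients (log2 change per SD of the score, points) with 95% confidence intervals for the 10 members called against the G1/S score, set against the G1/S, G2/M and p53 scores over 39 arrays with batch as a term. Filled points are called by limma at an adjusted p under 0.05. The 14-gene H4 probe set 205967_at is the 1 member to the right of 0 for G1/S.

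Genes of factors that make, process or carry histones were called against the G1/S score in the other direction than the H2A and H2B probe sets. Of 15 genes for histone mRNA synthesis and processing 7 were higher with the score and 0 lower. Of 18 chaperones the counts were 7 and 0, and of 8 variant histone genes 3 and 0. Over all probe sets the shares were the 3.33% and 1.41% given above. SLBP, which binds the stem-loop, rose by 0.11 ± 0.019 per SD (limma adjusted p = 1.16e-04), and NPAT, the coactivator of histone transcription, had 0.07 ± 0.025 (adjusted p = 0.108). The chaperones CHAF1A and CHAF1B of the CAF-1 complex each rose by 0.17, and H2AX, the variant phosphorylated at DNA breaks, rose by 0.16. Against the G2/M score 3 of 15, 7 of 18 and 4 of 8 were higher and none lower, and none of these genes was called against the p53 score.

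**Figure D4:**
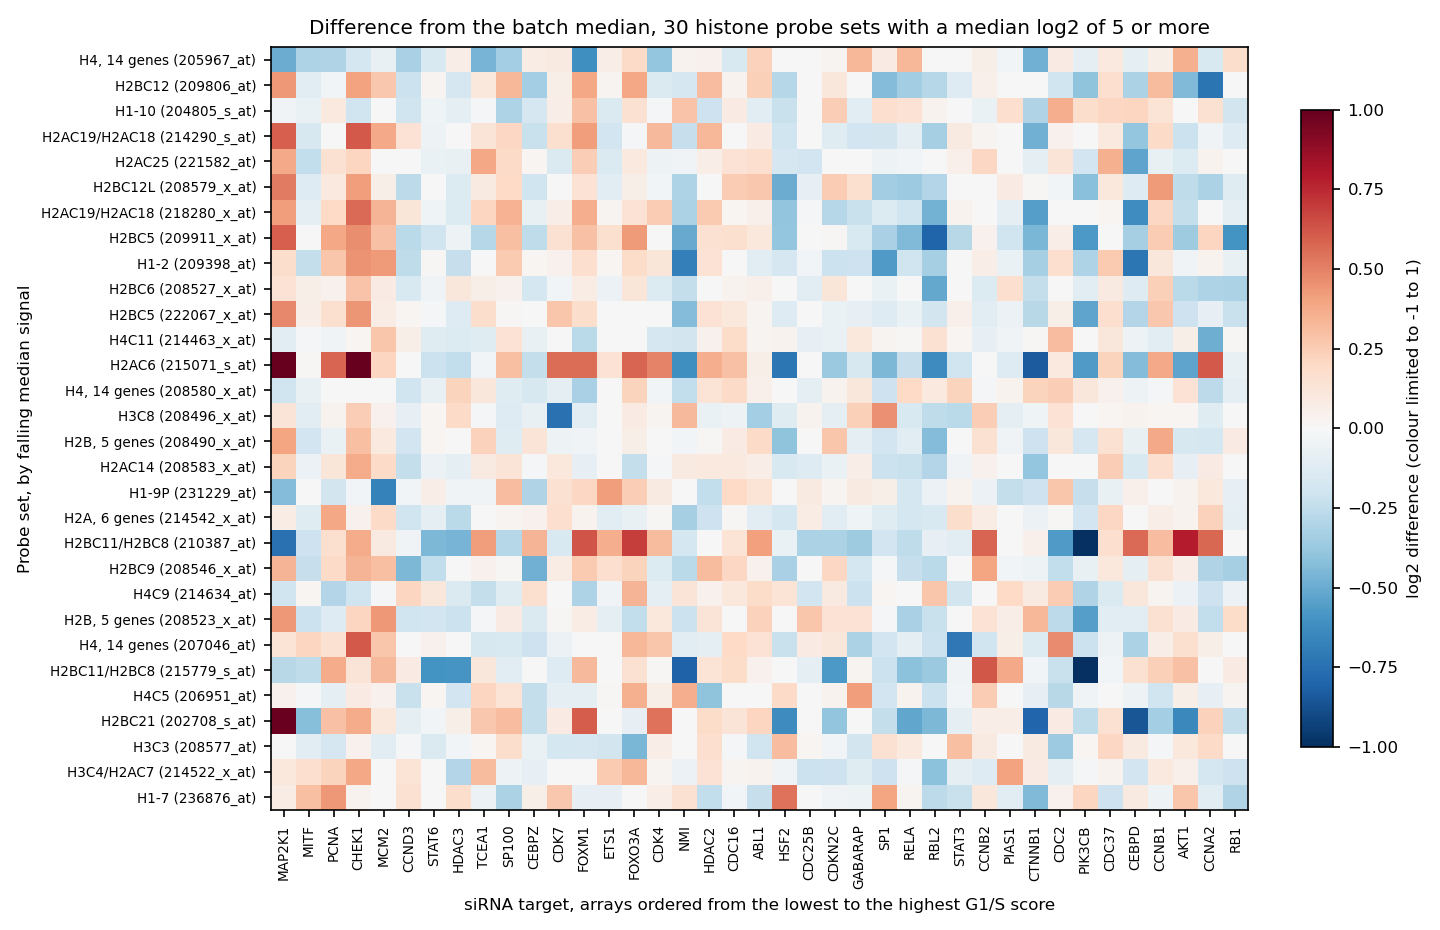
Batch-centred log2 values (colour, limited to -1 and 1) of the 30 histone probe sets with a median log2 value of at least 5 (rows) in the 39 siRNA arrays (columns), ordered by the G1/S score from lowest to highest. H2AC6 and H2BC21 are high in the MAP2K1 column at the low end, while the H4 probe set 205967_at is low there.

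Histone signal differed between KD3 and KD2 and, in fewer members, between KD1 and KD2. KD3 was not tested against KD1. These contrasts set different siRNAs against each other, so batch and siRNA cannot be told apart, and they give the size of what centring on the batch median removes. Against KD2, 33 members were higher in KD3 (42.3%), where 19.8% of all probe sets were, and 5 were lower (6.41%), where 22% of all were. The median difference over the members was 0.125, against -0.018 over all probe sets. Higher were 11 of 20 H2B, 7 of 16 H4, 6 of 16 H2A, 5 of 14 H1 and 3 of 10 H3 probe sets, and 32 of the 33 were replication-dependent.

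H2AC6 had the largest of these differences, 2.27 ± 0.19 on the log2 scale or 4.82-fold (limma adjusted p = 3.43e-14), with the values given above. The H4 probe set 207046_at was higher by 1.41 ± 0.098 (adjusted p = 1.92e-16), with 6.30, 7.01 and 7.29 in KD3 against 5.21, 5.53 and 6.14 in KD2. The same separation from all KD1 and KD2 arrays held for 207046_at, for the H4 probe set 205967_at, for H2BC6 208527_x_at and for 208490_x_at, which names 5 H2B genes, and for no other member of the 33. How many of all probe sets separated in this way was not counted.

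The H4 probe set 205967_at was higher by 0.79 ± 0.10 (adjusted p = 4.7e-09). H2AC25 was higher by 0.47, H1-10 by 0.38 ± 0.075 and H2BC12 by 0.36 ± 0.11, with limma adjusted p of 1.69e-06, 3.42e-05 and 0.00978. The H3 probe set 206110_at was higher by 0.74 and H2BC12L by 0.68. The H2BC12 arrays of the 2 batches overlapped, at 9.71, 10.15 and 10.41 in KD3 and 9.05, 9.78 and 10.22 in KD2.

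Lower in KD3 than in KD2 were 210387_at of H2BC11 and H2BC8 (-1.13), the pseudogene H1-9P (-0.67), H3C7 (-0.39), 208026_at of H4C7 and H4C6 (-0.31) and H2BC13 (-0.20), all below the noise limit. H1-8 had -0.02 (adjusted p = 0.85). In the same contrast SLBP was lower by 0.82 (limma adjusted p = 4.05e-14), at 9.83, 10.00 and 10.09 in KD3 against 10.45, 10.81 and 11.02 in KD2, with no overlap. NPAT had -0.18 (adjusted p = 0.039). Of the other lists 7 of 15 mRNA factors, 11 of 18 chaperones and 3 of 8 variants were lower and 5, 3 and 2 higher, with SRRT, an RNA processing factor, at -1.41, RBBP7, a histone-binding protein, at -0.99 and CENPA, the centromere H3, at 1.04. Of the 44 G1/S score genes 37 were lower in KD3, with a median of -0.61.

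A smaller share of histone probe sets than of all probe sets differed between KD1 and KD2. Higher were 8 members (10.3%; 22.5% of all probe sets) and lower 9 (11.5%; 22% of all). H1-10 was higher by 0.65 ± 0.068 (limma adjusted p = 6.1e-11), at 9.38, 9.69 and 10.05 in KD1 against 8.70, 9.00 and 9.30 in KD2, so that no array overlapped. Among the members above noise 214290_s_at was lower by 0.26 ± 0.092 (adjusted p = 0.0182). The pseudogene H1-9P was higher by 0.56, H2AC25 231681_x_at by 0.33 and H2BC13 by 0.22, and 215779_s_at and 210387_at of H2BC11 and H2BC8 were each lower by 0.64 (-0.64), 208026_at of H4C7 and H4C6 by 0.37 (-0.37), H2AC17 by 0.33 (-0.33) and the H3 probe set 206110_at by 0.28 (-0.28). H1-8 had 0.04 (adjusted p = 0.65).

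Among histone mRNA factors in KD1 3 of 15 were higher and 10 lower, with CASP8AP2 at -0.68, NPAT at -0.45 and SLBP at 0.09 (adjusted p = 0.27). Of the chaperones 8 of 18 were higher and 1 lower, with CABIN1 at 0.85 and SSRP1 at 0.66, and H2AX was at 0.78. The log2 difference of the 3′ and 5′ GAPDH probe sets, a measure of RNA quality, moved with batch, with medians of 0.072 in KD1, -0.065 in KD2 and -0.128 in KD3. With that difference as a covariate 2 members were called in KD1 against KD2, where 2580 probe sets in all were higher and 960 lower. In KD3 against KD2 25 members were called, where 7925 in all were higher and 9070 lower. Without it the counts over all probe sets were 12309 and 12011 for KD1 and 10799 and 12051 for KD3. Every KD1 array lay above every KD2 array in the GAPDH difference (lowest 0.038, highest -0.019). The covariate and these batches could therefore hardly be told apart, and its part in the batch differences was not tested further.

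**Figure D5:**
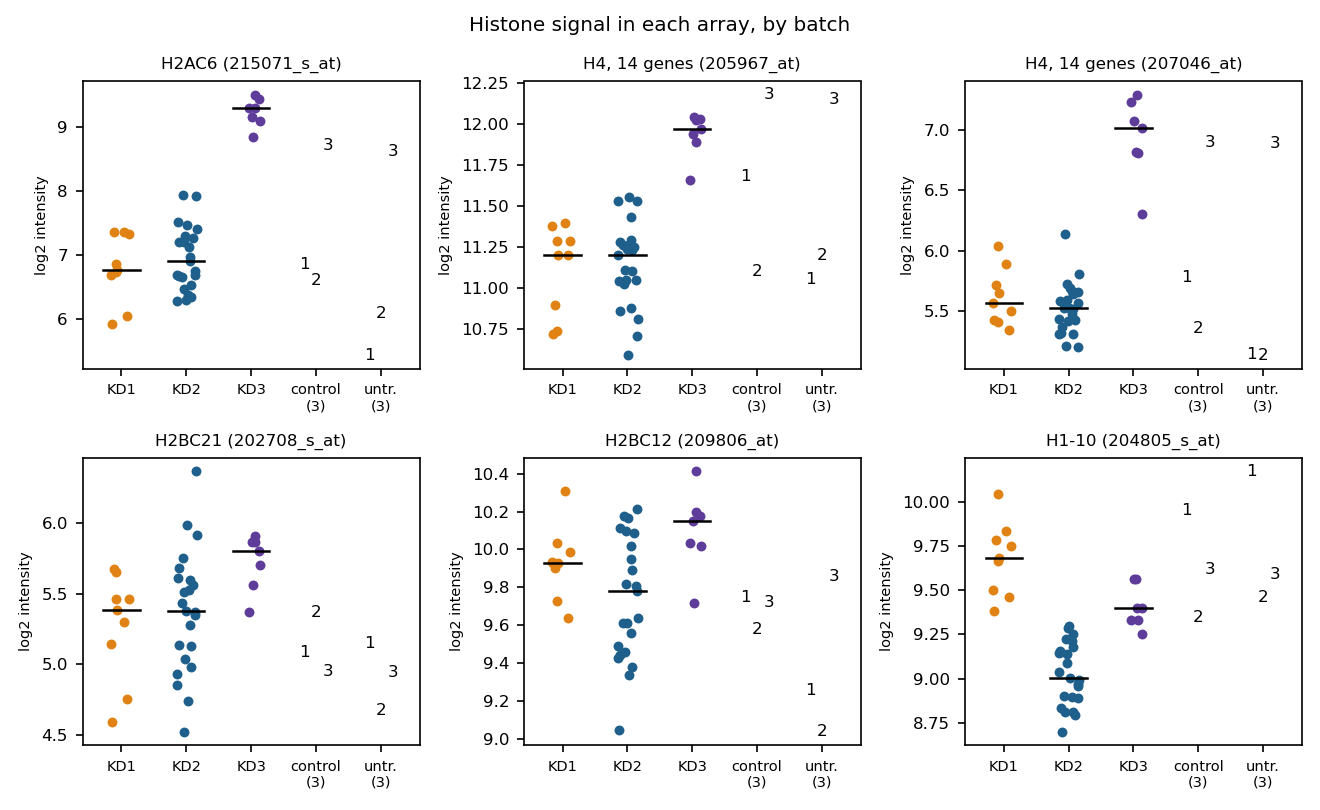
Log2 values of 6 histone probe sets (H2AC6, the 14-gene H4 probe sets 205967_at and 207046_at, H2BC21, H2BC12 and H1-10) in each siRNA array (points) by batch, with the batch median as a bar, and in the control and untreated arrays, shown by their numbers. The 7 KD3 points lie above all KD1 and KD2 points for H2AC6 and both H4 probe sets, and control array 3 and untreated array 3 lie above the other control and untreated arrays there.

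The control siRNA was compared with no transfection on 3 arrays each. No member was called by limma in either direction, beside 0% of all probe sets called higher and 0% lower, and at an unadjusted p under 0.05 the counts were 0 of 78 members and 97 of all probe sets. H2AC6 had 6.86, 6.60 and 8.71 in control arrays 1, 2 and 3 and 5.44, 6.09 and 8.62 in untreated arrays 1, 2 and 3. In both groups the third array stood high, and the other arrays of the groups did not overlap.

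The H4 probe set 205967_at had 11.68, 11.10 and 12.18 in the control arrays against 11.05, 11.20 and 12.15 in the untreated ones, with overlap. H2BC12 had 9.75, 9.58 and 9.72 against 9.26, 9.04 and 9.85, a difference of 0.30 with a 95% interval from -0.22 to 0.82. H1-10 had 9.95, 9.35 and 9.62 against 10.18, 9.46 and 9.59, and H1-8 had 3.73, 3.75 and 3.57 against 4.05, 3.76 and 3.59, so that the groups overlapped for both. Without the third arrays no member was called, and 4 members and 1135 probe sets in all had an unadjusted p under 0.05. Nothing says that these arrays came from separate cultures, so that the p-values measure the spread between them alone.

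The third control and untreated arrays lay near KD3 in these genes. Of the 33 members higher in KD3, each of the third arrays was nearer the KD3 than the KD2 median for 25, while control arrays 1 and 2 and untreated array 1 were so for 5 each and untreated array 2 for 3. This count was not made over all probe sets.

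In single siRNA arrays the largest shifts of the 5 members above noise were a rise after siRNA against MAP2K1, the kinase MEK1, and a fall after siRNA against CEBPD, a transcription factor. Each value here is the difference of 1 array from its batch median, and 53 of the 3042 member-by-array values lay past 1.5-fold (1.74%), against 0.755% of the values of all probe sets. The median over the 5 members was 0.38 for MAP2K1, 0.29 for FOXM1, 0.22 for CHEK1 and 0.19 for SP100 at the high end, and -0.32 for CEBPD, -0.30 for CTNNB1, -0.20 for HSF2 and -0.20 for CCND3 at the low end. This median mixes probe sets that moved in different directions.

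After MAP2K1 siRNA 6 members were at least 1.5-fold higher (7.69%), where 0.386% of all probe sets were. H2AC6 was at 7.93 against a batch median of 6.91 (2.02-fold), H2BC21 at 6.37 against 5.38 (1.99-fold), and the 6-gene H2A probe set 207156_at at 4.62 against 3.93. In the same array 1 member was at least 1.5-fold lower (1.28%; 0.636% of all probe sets), 210387_at of H2BC11 and H2BC8 at -0.74. There the H4 probe set 205967_at differed by -0.49, SLBP by -0.36 and CASP8AP2 by -0.43, and both cycle scores were at or next to their lowest. CHEK1 siRNA, against the checkpoint kinase, gave 3 members higher (3.85%), where 0.123% of all probe sets were. H2AC6 was at 7.94 (2.04-fold), 214290_s_at at 9.87 (1.53-fold) and the H4 probe set 207046_at at 6.14 (1.53-fold). The other probe sets of the same 14 H4 genes did not rise there. 205967_at differed by -0.18, 208580_x_at by 0.00, 214516_at by -0.04 and 208181_at by -0.07.

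FOXM1 siRNA, against a transcription factor of mitosis genes, gave 2 members higher (2.56%; 0.794% of all probe sets). These were 210387_at of H2BC11 and H2BC8 at 7.20 (1.54-fold) and H2BC21 at 5.99 (1.52-fold), and H2AC6 was at 7.47 (1.47-fold). The H4 probe set 205967_at had its lowest difference of the 39 arrays there, -0.61, as the 1 member at least 1.5-fold lower (1.28%; 1.74% of all probe sets), and its highest after AKT1 siRNA, 0.36. SP100 siRNA, against a nuclear body protein, had 0 members past 1.5-fold upward (0.251% of all probe sets), with differences of 0.35 for 218280_x_at, 0.33 for H2BC12 and 0.31 for H4C8 208180_s_at.

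At the low end, CEBPD siRNA gave 3 members lower by at least 1.5-fold (3.85%; 0.377% of all probe sets). H2BC21 was at 4.52 against 5.38, H1-2 at 6.91 against 7.64 and 218280_x_at at 7.54 against 8.16. CTNNB1 siRNA, against beta-catenin, also gave 3 lower (0.697% of all), with H2AC6 at 5.94 against 6.77, H2BC21 at 4.59 against 5.38 and H3C6 at 3.51 against 4.10. In that array 2 members (2.56%) were at least 1.5-fold higher, against 0.9% of all, namely H1-1 at 0.67 and H2BC11 214502_at at 0.61. The median of 214502_at was 3.92, and 210387_at and 215779_s_at of H2BC11 and H2BC8 differed by 0.05 and -0.03 there. HSF2 siRNA gave 3 lower (1.05% of all), with H2AC6 at 6.05 against 6.77, H2BC21 at 4.75 against 5.38 and H2AC17 at 3.61 against 4.22, and 2 higher (2.56%; 1.3% of all), H1-4 at 0.77 and H2BC13 at 0.69. Members that moved against the median of their array were named after their values were seen. CCND3 siRNA, against cyclin D3, gave 0 lower (0.137% of all), with differences of -0.45 for H2BC9, -0.33 for H4C4 and -0.32 for the H4 probe set 205967_at. H2AC6 and H2BC21 were thus among the members farthest from the batch median at both ends, and both lie below the noise limit by their medians.

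The members above noise did not share their extreme arrays. H2BC12 was highest after MAP2K1 siRNA (0.44) and lowest after siRNA against CCNA2, cyclin A2 (-0.73). 214290_s_at was highest after CHEK1 siRNA (0.62) and lowest after CTNNB1 siRNA (-0.48), and H2AC25 was lowest after CEBPD siRNA (-0.53). H1-10 ran from -0.31 after SP100 siRNA to 0.36 after CDC2 siRNA, and H1-8, far below the noise limit, from -0.35 after CDC25B siRNA to 0.43 after NMI siRNA.

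The farthest value of any member was found after siRNA against PIK3CB, a catalytic subunit of phosphoinositide 3-kinase, an array named here after its values were seen. The probe sets 210387_at and 215779_s_at, both of H2BC11 and H2BC8, differed by -2.22 (4.35 against a batch median of 6.57) and by -1.02. With 214472_at, a probe set of H3 genes and H2AC7, at -0.62, 3 members were at least 1.5-fold lower, where 0.159% of all probe sets were. Across the 39 arrays 210387_at and 215779_s_at had a Spearman's rho of 0.76. Other probe sets naming these genes differed less in the PIK3CB array. That of H2BC11 alone, 214502_at (median 3.92), differed by -0.02. The probe sets 208490_x_at, 208523_x_at and 214455_at, which name H2BC8 with other H2B genes, differed by -0.17, -0.55 and 0.08.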

How the data were processed

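The authors normalised the arrays by RMA with the R package affy and deposited linear intensities, which were converted here to log2 values; the package version is not given in the sources used here. The 78 members came from current symbols of the platform annotation (41097 probe sets name 1 gene, 1801 several, 11777 none). Members, gene lists and tests were chosen with earlier results of these data known. All 54675 probe sets were fitted with limma 3.58.1 (lmFit, eBayes, two-sided) in R 4.3.3, with Benjamini-Hochberg adjustment over all of them and calls at an adjusted p under 0.05. Scores were means of batch-centred values, and batch was a term in every main fit to a score. The alternative without a batch term also used a score of values not centred on the batch (uncentred score). Single arrays were set against the batch median with a fold of 1.5. Tables and figures used Python 3.11.15, numpy 2.4.6, pandas 2.3.3 and matplotlib 3.10.9. The fits were tested on simulated data.

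Named were, in each fit, the called members above noise and up to 5 below it by size of coefficient, H1-10 and H1-8 throughout, SLBP, NPAT and the 3 called genes of other lists with the largest coefficients. In single arrays these were the 4 highest and 4 lowest by the median of the members above noise, with the 3 members that differed most in each. Deviations of same-numbered control and untreated arrays from their group means had correlations of 0.58, 0.67 and 0.89. Control array 3 and untreated array 3 were near copies, and deviations from a shared group mean depend on each other. Correlations of unlike-numbered arrays were not computed, so these values cannot show that the numbers pair the arrays. The labels give no reason for such a pairing. Alternatives changed the batch term, arrays, probe set filter, score, RNA quality term, replicate block or reference. The number of arrays limits the precision, and no depth applies.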

Additional observations from a re-analysis of the deposited data

How the results depend on the processing

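Of 260 values of single members and arrays under an alternative, 157 were labelled the same, 88 lost the call, 11 moved and 4 reversed. For members the same meant that direction and call were kept. Medians of single arrays had no call, and for them it meant a shift below the SD of these medians within the batch. The filter on probe sets ending in _s_at or _x_at reused the main fit, so its values were the same by construction. The H4 probe set 205967_at reversed against the G1/S score with no batch term and an uncentred score (-0.17). H2BC5 222067_x_at did so against the G2/M score with the other 2 scores as covariates (0.0077). The other reversals were H1-7 238373_at in KD1 against KD2 with the GAPDH difference (-0.16) and the SP100 median against the 3 control arrays (-0.0159).

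Members called against the G1/S score, 10 in all, became 35 without a batch term and with an uncentred score. They became 1 in KD2 alone, 3 among probe sets above noise, 1 without the lowest array and 0 with the other 2 scores. They became 4 without probe sets ending in _s_at or _x_at and 2 without the 2 farthest arrays. Against the G2/M score, 3 became 0, 1, 2, 5, 0, 1 and 0 in the same order, 1 without the highest array and 1 with a median score. Against the p53 score, 0 became 26 without a batch term and with an uncentred score. Calls over all probe sets moved too. For G1/S, 1819 higher and 772 lower became 7852 and 7864 without a batch term and with an uncentred score. In KD2 alone they became 1129 and 264. They became 1252 and 376 without the lowest array and 53 and 34 with the other 2 scores. For p53, 35 higher and 0 lower became 5826 and 5183 without a batch term and with an uncentred score. With 1 array left out the G1/S count ran from 1 to 12, the G2/M count from 0 to 6, KD1 against KD2 (17) from 13 to 21 and KD3 against KD2 (38) from 32 to 40. Among probe sets above noise KD1 gave 2 and KD3 4, and with the GAPDH difference 2 and 25. The 53 values past 1.5-fold in single arrays became 131 against the median of all 39 arrays and 211 against the control arrays. Against these references all probe sets were not counted. Leaving out single arrays and the 2 farthest arrays was chosen after the data were seen.

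With a replicate block by the number of the control and untreated arrays 0 members were called by limma. There 2 members and 1643 probe sets in all had an unadjusted p under 0.05. The count was 0 without any 1 of these arrays (from 0 to 0). Most members lay well below the noise limit, which limits what can be seen of them.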
